A study of Mus musculus with 6 samples.

Results

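The 9 collagen genes described here build no thick fibrils of their own. They were chosen by name as the network-forming, fibril-associated and transmembrane collagens of the mouse lesion, 9 of the 32285 genes counted, by a rule that names genes and uses no measured value, though the set was proposed with earlier results of these data known. Col8a1 and Col8a2 encode the chains of collagen VIII, a short-chain network collagen. Col12a1, Col14a1, Col20a1, Col19a1, Col9a1 and Col9a3 encode fibril-associated collagens with interrupted triple helices (FACITs) or close relatives of them. Col25a1 encodes a collagen anchored in the plasma membrane.

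Single nuclei were profiled from cortical lesions made by photothrombosis (PT), in which light and a dye close surface vessels. Lesions were taken 7 or 21 days post injury (dpi) from 3 kinds of mice, giving 6 libraries. Ctrl mice were wild type and had no listed treatment. ADWA11 mice were wild type and received ADWA11, an antibody that blocks integrin αvβ8, by intraperitoneal injection at injury and weekly after it. Tgfbr2_cKO mice, labelled Col1a2(creER); Tgfbr2(flox), carried a tamoxifen-dependent Cre under the Col1a2 promoter and a floxed Tgfbr2 gene, so that tamoxifen deletes the type II TGFβ receptor in cells that express Col1a2. All mice had the PT injury, and the study's methods give C57BL/6 as the background for such lines and young adult to adult ages. Each library pooled the lesions of 1 male and 1 female mouse, so each group was 1 library of 2 mice with no second library. The deletion reaches only those fibroblasts that recombined, and other Col1a2-expressing cells may recombine too. The study used more than one floxed Tgfbr2 allele, and which one these mice carried is not given in the sources used here. The study's methods describe tamoxifen-induced controls for its knockout lines and a control antibody for ADWA11, while the labels list no treatment for Ctrl and do not say which of these the sequenced mice received.

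Collagen VIII forms open hexagonal lattices beneath endothelia and in remodelling vessel walls. Collagens XII and XIV sit on the surface of collagen I fibrils, where they link fibrils to decorin, tenascin-X and other matrix proteins. Collagen IX plays the same part on the collagen II fibrils of cartilage. TGFβ is held latent in the matrix, integrin αvβ8 frees it on nearby cells, and the type II receptor binds it. Scar fibroblasts are a classical target of TGFβ, which raises their output of collagen I.

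The 6 libraries held 7205 to 14246 barcodes and 64798965 to 140310354 unique molecular identifiers (UMIs, single captured RNA molecules). Values over all nuclei used the 61917 nuclei that passed filters, and 58587 were analysed by class. Among these, 12797 were fibroblast-like, with 1866 in Ctrl, 2481 in ADWA11 and 326 in Tgfbr2_cKO at 7 dpi, and 4320, 2912 and 892 at 21 dpi. Median UMIs per fibroblast nucleus ran from 5779.5 in Tgfbr2_cKO at 7 dpi to 9668 in ADWA11 at 7 dpi. Each pair of libraries shared 21 to 61 barcodes, at most 0.513% of the smaller one. Tgfbr2 itself was counted over the whole gene and does not show the deleted part; its level in fibroblasts was 318, 244 and 234 CPM (UMIs of a gene scaled to a fixed total for the class) in Ctrl, ADWA11 and Tgfbr2_cKO at 7 dpi and 222, 193 and 184 CPM at 21 dpi. The Tgfbr2_cKO library at 7 dpi held most of the neuron-like nuclei, for example 1718 of the 2100 nuclei of neuron cluster 12. In its fibroblast nuclei the excitatory neuron markers summed to 34.7 CPM and the oligodendrocyte markers to 69.0 CPM, against 1.11 and 16.3 CPM in Ctrl at 7 dpi. In Tgfbr2_cKO fibroblasts at 21 dpi the oligodendrocyte markers summed to 130 CPM against 24.0 in Ctrl, the astrocyte markers to 1035 against 446, the mural markers to 152 against 82.5 and the fibroblast markers, some of which are collagens, to 1919 against 6686 CPM. The part of such foreign RNA in the values below was not tested.

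In the GRCm38 (mm10) annotation of GENCODE M21 all 9 genes are protein coding. Col8a1 (ENSMUSG00000068196) lies on the minus strand at chr16:57624258-57754737 and Col8a2 (ENSMUSG00000056174) on the plus strand at chr4:126286793-126314330. Col12a1 (ENSMUSG00000032332) lies on the minus strand at chr9:79598991-79718831 and Col14a1 (ENSMUSG00000022371) on the plus strand at chr15:55307750-55520803. Col25a1 (ENSMUSG00000058897) spans 468.4 kb of the plus strand at chr3:130131501-130599877. Col9a1 (ENSMUSG00000026147, plus strand, chr1:24177610-24252684) and Col19a1 (ENSMUSG00000026141, minus strand, chr1:24261890-24587472) are neighbours whose 3′ ends face each other across 9.2 kb. Col9a3 (ENSMUSG00000027570, chr2:180597790-180622189) and Col20a1 (ENSMUSG00000016356, chr2:180986535-181018363) lie on the plus strand of chromosome 2, 364.3 kb apart.

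Promoter sequences from RefSeq (GRCm38.p6) are shown for 4 genes that the comparisons below turn on: the network pair Col8a1 and Col8a2, the transmembrane Col25a1 and the glial Col20a1. RefSeq tables used here held a promoter for 6 of the 9 genes. Each run is 5′ to 3′ on the gene's own strand, from 250 bases before the start site through the first 50 bases of the transcript. Capitals mark the Smad-type motifs CAGAC and AGACA and the GC box GGGCGG, on either strand; CAGAC and AGACA can overlap in CAGACA. Col8a1 is at chr16:57754688-57754987 (minus), Col8a2 at chr4:126286544-126286843 (plus), Col25a1 at chr3:130180595-130180894 (plus) and Col20a1 at chr2:180986285-180986584 (plus).
Col8a1: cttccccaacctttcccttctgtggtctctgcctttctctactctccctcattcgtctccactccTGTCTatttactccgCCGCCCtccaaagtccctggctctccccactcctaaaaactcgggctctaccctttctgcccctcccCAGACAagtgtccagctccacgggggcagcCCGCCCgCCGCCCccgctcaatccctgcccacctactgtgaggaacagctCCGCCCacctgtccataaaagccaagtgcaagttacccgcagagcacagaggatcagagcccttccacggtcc
Col8a2: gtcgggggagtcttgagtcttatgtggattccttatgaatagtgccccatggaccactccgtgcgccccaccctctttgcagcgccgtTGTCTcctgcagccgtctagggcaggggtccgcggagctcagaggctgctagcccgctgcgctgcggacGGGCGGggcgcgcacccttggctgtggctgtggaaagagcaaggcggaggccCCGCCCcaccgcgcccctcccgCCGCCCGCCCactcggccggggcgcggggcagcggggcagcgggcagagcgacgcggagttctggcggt
Col25a1: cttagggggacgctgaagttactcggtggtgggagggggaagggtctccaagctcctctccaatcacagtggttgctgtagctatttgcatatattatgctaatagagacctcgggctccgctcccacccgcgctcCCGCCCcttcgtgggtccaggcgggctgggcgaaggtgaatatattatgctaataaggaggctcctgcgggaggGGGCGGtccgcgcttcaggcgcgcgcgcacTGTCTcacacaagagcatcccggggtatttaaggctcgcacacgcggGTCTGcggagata
Col20a1: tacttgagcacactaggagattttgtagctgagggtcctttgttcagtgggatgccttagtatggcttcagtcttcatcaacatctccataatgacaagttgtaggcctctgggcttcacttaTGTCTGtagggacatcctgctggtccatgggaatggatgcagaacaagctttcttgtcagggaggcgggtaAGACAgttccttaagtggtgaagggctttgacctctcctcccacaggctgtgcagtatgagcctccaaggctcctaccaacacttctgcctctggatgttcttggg

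The Col8a1 promoter held 1 CAGAC, 2 AGACA and 4 GC boxes, and the Col8a2 promoter held 1 AGACA and 4 GC boxes with a GC content of 71.7%. The Col25a1 promoter held 1 CAGAC, 1 AGACA and 2 GC boxes; its RefSeq start lies inside the longer GENCODE gene. The Col20a1 promoter held 1 CAGAC and 2 AGACA and no GC box in this window. Of 32851 promoters of the same length, 49.6% held CAGAC, 51.6% AGACA and 35.7% a GC box, and the median GC content was 52.7%. The AP-1 motif TGANTCA, found in 7.81% of promoters, and the TATA box TATAAA, found in 13.6%, were in none of the 4. These matches are a description of letters and not of sites.

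The 9 genes fell into a fibroblast set, a glial set and a neuronal gene by the class of nuclei with most of their UMIs. Fibroblast-like nuclei held 82.0% of the UMIs of Col8a1, 75.0% of Col8a2, 76.3% of Col12a1, 80.2% of Col14a1 and 62.8% of Col25a1. Oligodendrocyte-precursor-like nuclei held 39.1% of Col9a1, 31.0% of Col9a3 and 38.7% of Col20a1, and astrocyte-like nuclei 32.6% of Col9a1, 24.7% of Col9a3 and 7.19% of Col20a1. Fibroblast-like and myeloid-like nuclei, both larger classes, held more of the Col20a1 UMIs than astrocytes, 18.05% and 12.5%, at 11.25 and 6.15 CPM against 142 CPM in precursors. Neuron cluster 16, which had inhibitory neuron markers raised and Vip and Gad1 among its 10 leading genes, held 47.0% of the UMIs of Col19a1, and clusters 12, 19 and 18, which had excitatory neuron markers raised, held 23.4%, 14.4% and 9.03%. The clusters were made without these 9 genes, so their pattern over clusters was not built in.

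**Figure D1:**
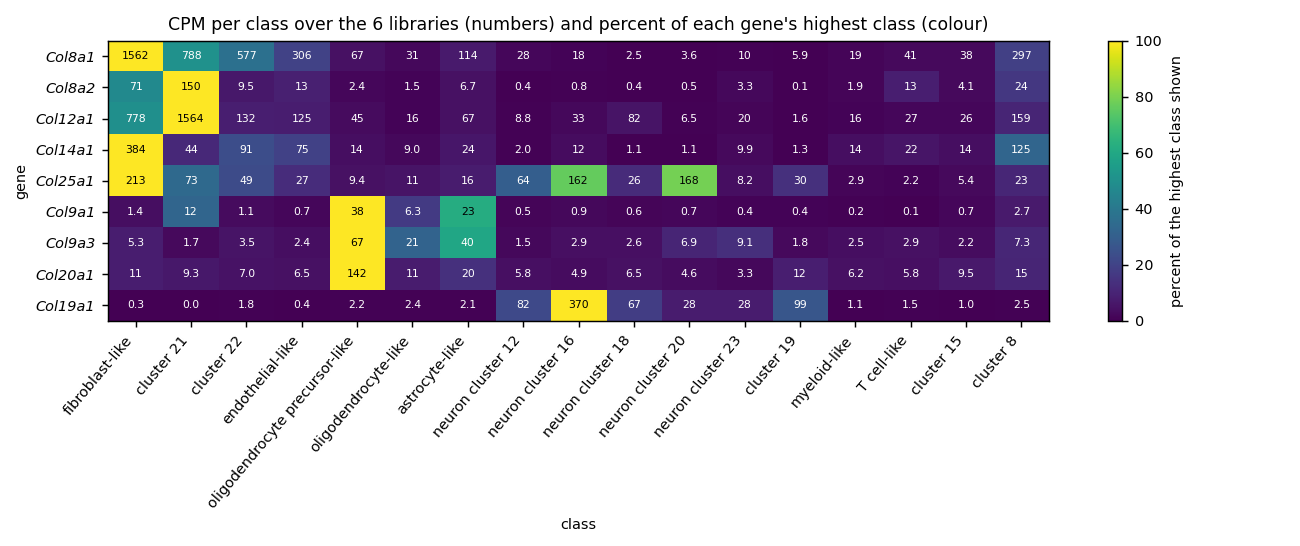
Levels of the 9 collagen genes (rows) in each class of nuclei (columns), as CPM over the 6 libraries pooled, printed in the cells; colour gives each value as a percent of the gene's highest class. Col8a1 (1562 CPM), Col14a1 (384) and Col25a1 (213) peak in fibroblasts, Col8a2 (150) and Col12a1 (1564) in the bone-matrix cluster 21, Col9a1 (37.7), Col9a3 (67.5) and Col20a1 (142) in precursors, and Col19a1 (369) in neuron cluster 16.

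Nuclei were thinned to 2000 UMIs each, leaving out those with fewer, so that 12379 of the 12797 fibroblast nuclei remained. Of these 55.6% had a UMI of Col8a1, 49.4% of Col12a1, 30.7% of Col14a1, 12.3% of Col25a1 and 11.2% of Col8a2. Myeloid nuclei, which should lack these genes, had them in 3.35%, 3.23%, 2.61%, 0.573% and 0.472%, so the fibroblast shares stood well above that background. Before thinning, at median depths of 7676 UMIs in fibroblasts and 5393 in myeloid nuclei, the fibroblast shares were 70.1%, 70.4%, 46.5%, 18.5% and 24.8%. For Col9a3, Col20a1 and Col9a1 the thinned fibroblast shares were 0.816%, 2.26% and 0.250%, against 0.520%, 1.23% and 0.0289% in myeloid nuclei. For Col19a1 the thinned share in fibroblasts was 0.0889%, below the 0.222% of myeloid nuclei, so its fibroblast UMIs were read as background.

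Unnamed cluster 21, with 663 nuclei led by Col22a1 and the bone-matrix genes Bglap and Ibsp, carried high levels of part of the fibroblast set. Its Col12a1 level was 1977 and 1000 CPM in Ctrl and ADWA11 at 7 dpi, from 32 and 95 nuclei, and 2107 and 1401 CPM at 21 dpi. Each Tgfbr2_cKO library had only 2 nuclei in it, so no level is given there. Its Col8a2 level over all libraries was 150 CPM, against 70.8 CPM in fibroblasts. The mixed mural and endothelial cluster 22 had 577 CPM of Col8a1 and 90.5 CPM of Col14a1. Endothelial nuclei had 306 CPM of Col8a1. Their Col8a1 level was 257, 101, 42.1, 505.5, 309 and 37.5 CPM in Ctrl, ADWA11 and Tgfbr2_cKO at 7 and then 21 dpi. Myeloid nuclei had most in both Ctrl libraries and least in both Tgfbr2_cKO libraries, at 38.4, 12, 1.33, 48.0, 13.8 and 0.818 CPM of Col8a1. The part of free fibroblast RNA in the endothelial values was not tested.

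In fibroblasts the 5 abundant members were lower in Tgfbr2_cKO than in Ctrl at both times, to different degrees. No member with at least 20 UMIs over both libraries was more than 2-fold higher in Tgfbr2_cKO or ADWA11. A gene was counted as past 2-fold where its CPM ratio exceeded 2 in either direction and it had at least 20 UMIs over both libraries. Each group was 1 library, whose 2 mice were processed together and told apart only by sex-linked genes, so no test was made, no p-value is given, and all intervals (95%) cover counting error only. ADWA11 and Tgfbr2_cKO were each set against the same Ctrl library at a time point, so their ratios share it and are not independent. Of the 9 members 8 had enough UMIs, and Col19a1 did not.

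In Tgfbr2_cKO against Ctrl at 7 dpi, 4 of the 8 members were past 2-fold lower (Col8a2, Col8a1, Col9a1 and Col12a1) and 0 higher, where 4.87% of the 14865 genes measured were lower and 8.63% higher. The Col9a1 call rested on 0 UMIs set to the floor, with a log2 ratio of at most -1.62 that was -0.87 in females and -0.57 without the 5 nuclei with most Col9a1 UMIs, short of 2-fold. The members' median log2 ratio was -0.89, against 0.09 over all genes. At 21 dpi 5 of 8 were lower (Col8a1, Col14a1, Col8a2, Col12a1 and Col9a3) and 0 higher, where 8.10% of 17116 genes were lower and 9.62% higher. The Col9a3 call rested on 16 against 152 UMIs, with the Tgfbr2_cKO level within the range of myeloid nuclei. The median was -1.68 for the members and -0.01 for all genes. In ADWA11 against Ctrl at 7 dpi 3 of 8 were lower (Col9a1, Col8a2 and Col8a1) and 0 higher, beside 3.29% lower and 7.07% higher of 16819 genes. At 21 dpi 2 of 8 were lower (Col8a1 and Col25a1) and 0 higher, beside 3.67% lower and 4.30% higher of 17750 genes. The medians were -0.84 and -0.44, against 0.08 and 0.02 for all genes.

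From 7 to 21 dpi in Ctrl 1 of 8 was higher (Col20a1) and 1 lower (Col9a1), beside 14.1% higher and 7.00% lower of 17274 genes. In ADWA11 2 of 8 were higher (Col20a1 and Col8a2) and 0 lower, beside 11.9% higher and 8.62% lower of 17514 genes. In Tgfbr2_cKO 4 of the 7 members with enough UMIs were lower at 21 dpi (Col8a1, Col9a3, Col14a1 and Col12a1) and 0 higher, beside 7.12% lower and 8.36% higher of 14148 genes. In males alone 1 was lower, and the Col9a3 call of the library rested on 16 against 14 UMIs. Without the unnamed fibroblast sub-clusters 5 members were lower in Ctrl and 4 in ADWA11 over the same time. The share of all genes past 2-fold was not counted for males alone or without these sub-clusters.

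**Figure D2:**
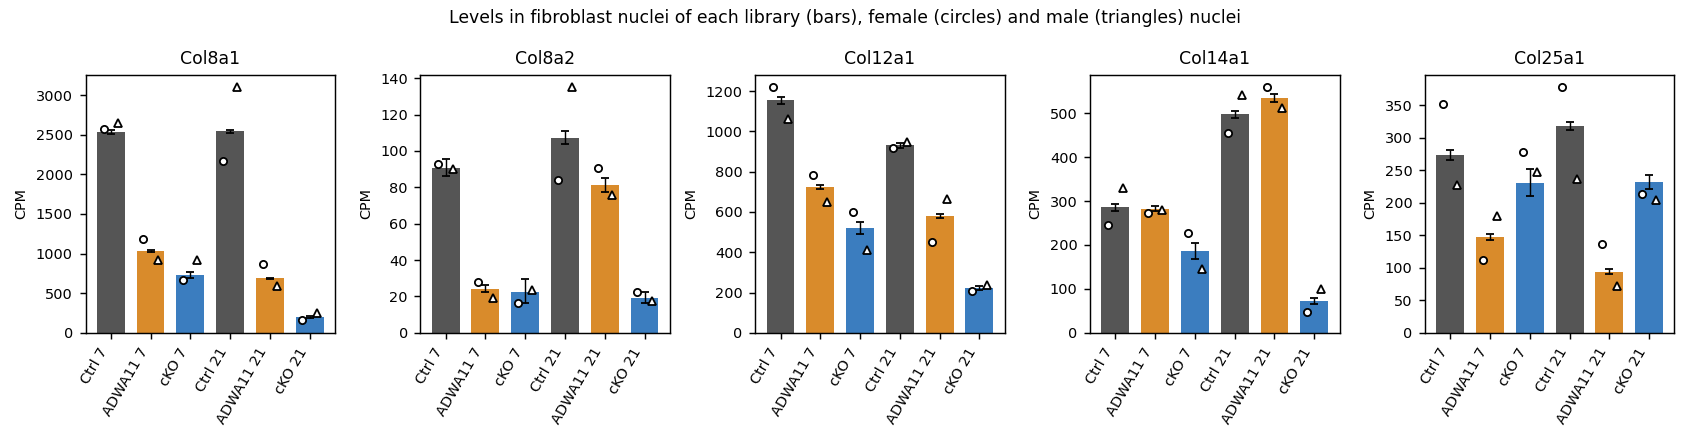
Levels of Col8a1, Col8a2, Col12a1, Col14a1 and Col25a1 in fibroblast-like nuclei of the 6 libraries, as CPM on a linear axis from 0. Bars are the library with its 95% Poisson interval, circles the nuclei assigned to the female mouse and triangles those assigned to the male; Col8a1 runs from 2546 CPM in Ctrl at 21 dpi to 198 CPM in Tgfbr2_cKO at 21 dpi.

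Col8a1, the first chain of the collagen VIII network, was high in both Ctrl libraries and lower in all others. Its fibroblast level was 2538 CPM in Ctrl, 1033 in ADWA11 and 734 in Tgfbr2_cKO at 7 dpi, and 2546, 686 and 198 CPM at 21 dpi. The widest interval relative to its value was that of Tgfbr2_cKO at 7 dpi, 697 to 771 CPM. Nuclei were also assigned to the female or the male mouse of a library by Xist and Y-linked genes, and by mouse neither ADWA11 nor Tgfbr2_cKO overlapped Ctrl: Ctrl females and males had 2570 and 2643 CPM at 7 dpi and 2168 and 3105 at 21 dpi, while the highest value of the other 8 mice was 1185 CPM.

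In Tgfbr2_cKO Col8a1 was 3.46-fold lower than in Ctrl at 7 dpi, a log2 ratio of -1.79 (-1.86 to -1.72), and 12.8-fold lower at 21 dpi, a log2 ratio of -3.68 (-3.75 to -3.61). In ADWA11 it was 2.46-fold lower at 7 dpi, a log2 ratio of -1.30 (-1.32 to -1.27), and 3.71-fold lower at 21 dpi, a log2 ratio of -1.89 (-1.92 to -1.87). Females and males gave -1.94 and -1.53 for Tgfbr2_cKO at 7 dpi, -3.78 and -3.63 at 21 dpi, and in ADWA11 at 21 dpi they gave -1.32 and -2.40. From 7 to 21 dpi its log2 ratio was 0.00 (-0.01 to 0.02) in Ctrl, -0.59 in ADWA11 and -1.89 in Tgfbr2_cKO. The Ctrl value of Col8a1 depended on sub-clusters described next: it was -1.52 without the unnamed ones and -0.81 without those mostly of 1 library. Without the unnamed ones the Col8a1 ratio over time was also past 2-fold in ADWA11, at -1.89, and was -2.94 in Tgfbr2_cKO.

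The fibroblast sub-clusters changed with time and group, so each gene was also followed within them. Myofibroblast-like sub-cluster 2 made up 54.6%, 48.4% and 43.6% of fibroblast nuclei in Ctrl, ADWA11 and Tgfbr2_cKO at 7 dpi and 2.06%, 1.82% and 0.448% at 21 dpi. Sub-cluster 0, unnamed and led by Slc47a2, Prok2 and Slc47a1, made up 46.6%, 77.3% and 10.3% at 21 dpi. Arachnoid-like sub-cluster 3, led by Trpm3 and Ptgds, made up 14.4%, 12.7% and 44.4% at 21 dpi. Sub-cluster 5, led by Frmpd2 and Clstn2, was 23.6% of Ctrl at 21 dpi and at most 1.34% elsewhere, and sub-cluster 7, led by Gabrg3 and Ebf3, was 35.8% of Tgfbr2_cKO at 21 dpi and at most 1.84% elsewhere. Sub-clusters that sit mostly in 1 library cannot be told apart from that library. The setting without the unnamed sub-clusters kept sub-clusters 2, 3 and 8, the last with proliferation markers raised. These held 1019, 111 and 67 nuclei in Ctrl at 7 dpi and 89, 621 and 19 at 21 dpi. In ADWA11 they held 1202, 521 and 164, then 53, 371 and 4, and in Tgfbr2_cKO 142, 37 and 10, then 4, 396 and 1. Under that setting a ratio over time set mostly myofibroblast-like nuclei against mostly arachnoid-like ones.

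Col8a1 was lower within most sub-clusters as well. In myofibroblast-like nuclei it stood at 3533, 1501 and 1138 CPM in Ctrl, ADWA11 and Tgfbr2_cKO at 7 dpi, a log2 ratio of -1.24 for ADWA11 and -1.63 for Tgfbr2_cKO. In arachnoid-like nuclei it stood at 604, 280 and 76.0 CPM at 7 dpi and 524, 266 and 94.9 CPM at 21 dpi. In sub-cluster 0 at 21 dpi it stood at 1346, 704 and 395 CPM, a log2 ratio of -0.94 for ADWA11 and -1.77 for Tgfbr2_cKO. Exceptions were sub-cluster 0 under ADWA11 at 7 dpi (0.63), sub-cluster 4 in Tgfbr2_cKO at 21 dpi (0.33) and sub-cluster 6, led by Sox6 and Caln1, where Ctrl and ADWA11 gave 2163 and 2286 CPM at 7 dpi, though 3482 and 3051 CPM at 21 dpi. Sub-cluster 5 of Ctrl at 21 dpi held 5782 CPM and sub-cluster 7 of Tgfbr2_cKO at 21 dpi 169 CPM, so these library-bound sub-clusters held high Col8a1 in Ctrl and low Col8a1 in Tgfbr2_cKO.

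Col8a2, the second chain of the network, was low in both Tgfbr2_cKO libraries and in ADWA11 at 7 dpi, but not in ADWA11 at 21 dpi. Its fibroblast level was 90.6, 24.3 and 22.4 CPM in Ctrl, ADWA11 and Tgfbr2_cKO at 7 dpi and 107, 81.1 and 19.3 CPM at 21 dpi, and the 47 UMIs of Tgfbr2_cKO at 7 dpi gave an interval of 16.4 to 29.7 CPM. Against Ctrl its log2 ratio was -2.02 (-2.47 to -1.60) for Tgfbr2_cKO and -1.90 (-2.04 to -1.76) for ADWA11 at 7 dpi. At 21 dpi it was -2.47 (-2.72 to -2.24) for Tgfbr2_cKO and -0.40 (-0.49 to -0.32) for ADWA11. The ADWA11 mice at 21 dpi differed in sign, 0.11 in the female and -0.83 in the male, and without the sub-clusters mostly of 1 library the Col8a2 ratio was 0.23.

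From 7 to 21 dpi Col8a2 was 3.34-fold higher in ADWA11, a log2 ratio of 1.74 (1.61 to 1.87), with 1.69 in females and 1.98 in males. Within ADWA11 sub-clusters that ratio was 1.74 in arachnoid-like nuclei, 1.04 in sub-cluster 6 and 0.91 in myofibroblast-like nuclei. In sub-cluster 0, which was 4.80% of ADWA11 fibroblasts at 7 dpi and 77.3% at 21 dpi, it was -0.39 (-0.66 to -0.11), from 115 to 88.1 CPM of Col8a2. Without the unnamed sub-clusters it was 0.39. In Ctrl it was 0.24 (0.16 to 0.33) over the same time, with opposite signs in the female (-0.14) and the male (0.59). The Ctrl value of Col8a2 was -1.57, past 2-fold, without the unnamed sub-clusters and -0.34 without those mostly of 1 library. In Tgfbr2_cKO at 21 dpi the sub-cluster 0 level of Col8a2 was 68.4 CPM against 66.5 CPM in Ctrl, a log2 ratio of 0.04, but 1.5 in females and -1.22 in males. Both chains often met in one nucleus: 30.01% of the 8973 fibroblast nuclei with a Col8a1 UMI had one of Col8a2, against 12.6% of those without, at median depths of 7985 and 6791 UMIs.

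Col12a1, a FACIT of the fibril surface that tendon, ligament and mechanically loaded scars use, was highest in Ctrl at both times. Its fibroblast level was 1155, 724 and 519.9 CPM in Ctrl, ADWA11 and Tgfbr2_cKO at 7 dpi and 930.3, 582 and 222 CPM at 21 dpi. Nuclei assigned to the 4 Ctrl mice, at 918 to 1222 CPM, lay above those assigned to the 8 other mice, at 207 to 783 CPM. These mice are pairs from 6 libraries, and the share of all genes separated in this way was not counted. Its log2 ratio to Ctrl was -1.15 (-1.24 to -1.06) in Tgfbr2_cKO at 7 dpi and -2.07 (-2.14 to -2.00) at 21 dpi. In ADWA11 it was -0.67 and -0.68 at the same times, short of 2-fold, but at 21 dpi the Col12a1 ratio was -1.02 in females and -1.17 without the unnamed sub-clusters. From 7 to 21 dpi it was -0.31 in Ctrl and ADWA11 and -1.23 (-1.34 to -1.12) in Tgfbr2_cKO; the last was -0.79 in males alone and under log-normalised clustering. Without the unnamed sub-clusters the Col12a1 ratio over time was -1.53 in Ctrl, -1.88 in ADWA11 and -3.11 in Tgfbr2_cKO, and under log-normalised clustering it was 0.18 in Ctrl and 0.04 in ADWA11. The size of each value depended on which nuclei were counted, and Tgfbr2_cKO gave the lowest of the 3 under both settings.

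Within sub-clusters Col12a1 differed less between groups than over all fibroblasts in places. In sub-cluster 0 at 21 dpi it stood at 611, 618 and 488 CPM in Ctrl, ADWA11 and Tgfbr2_cKO, a log2 ratio of -0.32 for Tgfbr2_cKO. In arachnoid-like nuclei at 21 dpi it stood at 210.1, 150.4 and 57.0 CPM, a ratio of -1.88. In myofibroblast-like nuclei at 7 dpi it stood at 1346, 979 and 681.5 CPM. Sub-cluster 6 held 2275 and 2350 CPM in Ctrl and ADWA11 at 7 dpi and 2280 and 1830 CPM at 21 dpi.

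Col14a1, a FACIT that limits lateral fibril growth and binds decorin, was higher at 21 than at 7 dpi in Ctrl and ADWA11 and lower in Tgfbr2_cKO. Its fibroblast level was 285, 283 and 186 CPM in Ctrl, ADWA11 and Tgfbr2_cKO at 7 dpi and 498, 535 and 72.0 CPM at 21 dpi. From 7 to 21 dpi its log2 ratio was 0.80 (0.75 to 0.85) in Ctrl and 0.92 (0.88 to 0.96) in ADWA11, both short of 2-fold, and -1.37 (-1.55 to -1.18) in Tgfbr2_cKO. The last was short of 2-fold in males (-0.55) and under log-normalised clustering (-0.88), while Col14a1 gave -2.28 in females and -3.80 without the unnamed sub-clusters. Without the unnamed sub-clusters, the Ctrl and ADWA11 values of Col14a1 were -1.31 and -1.96, while under log-normalised clustering they were 1.45 and 1.41, and in ADWA11 females Col14a1 gave 1.04, all past 2-fold. Against Ctrl at 21 dpi it was 6.91-fold lower in Tgfbr2_cKO, a log2 ratio of -2.79 (-2.91 to -2.67), with -3.28 in females and -2.44 in males. In ADWA11 the ratio of Col14a1 was -0.01 (-0.07 to 0.04) at 7 dpi and 0.10 (0.07 to 0.14) at 21 dpi. At 7 dpi the ratio for Tgfbr2_cKO was -0.62 (-0.77 to -0.47), but -0.11 in females and -1.18 in males.

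Sub-clusters with Col14a1 were mostly not the arachnoid-like one. Sub-cluster 0 held 495, 633 and 172 CPM in Ctrl, ADWA11 and Tgfbr2_cKO at 21 dpi, a log2 ratio of -1.52 for Tgfbr2_cKO, and sub-cluster 5 of Ctrl at 21 dpi held 850 CPM. Myofibroblast-like nuclei held 378, 441 and 269 CPM at 7 dpi. Arachnoid-like nuclei held 15.5 to 45.0 CPM in 5 libraries and 7.33 CPM in Tgfbr2_cKO at 21 dpi, where they made up 44.4% of fibroblasts. Of the 9004 nuclei with a Col12a1 UMI 56.0% had one of Col14a1, against 23.8% of those without, at median depths of 8118 and 6443 UMIs.

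**Figure D3:**
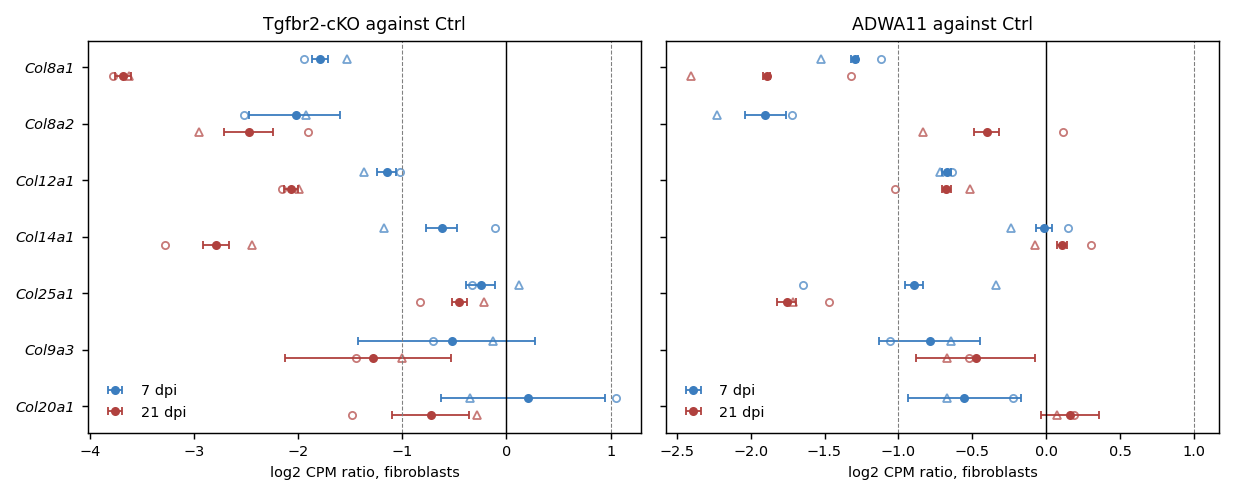
Log2 CPM ratios to Ctrl of the same day in fibroblast-like nuclei, for Tgfbr2_cKO and ADWA11, at 7 dpi (blue) and 21 dpi (red), for 7 of the genes. Filled points are the library with its 95% counting interval, open circles females, open triangles males, and dashed lines mark 2-fold; Col8a1, Col12a1 and Col14a1 lie left of the line in Tgfbr2_cKO at 21 dpi, at -3.68, -2.07 and -2.79.

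Col25a1, a transmembrane collagen first known from amyloid plaques and from motor axon growth, followed another pattern. Its fibroblast level was 273, 147 and 230.2 CPM in Ctrl, ADWA11 and Tgfbr2_cKO at 7 dpi and 317, 93.9 and 232 CPM at 21 dpi. By these levels ADWA11 was lowest at both times, though at 7 dpi the order depended on the alternatives below. At 21 dpi Tgfbr2_cKO, not ADWA11, was lowest within arachnoid-like nuclei, described next. Over the alternatives at 21 dpi the Col25a1 log2 ratio to Ctrl ran from -3.27 to -1.085 in ADWA11 and from -3.02 to -0.03 in Tgfbr2_cKO. Against Ctrl at 21 dpi the log2 ratio was -1.76 (-1.82 to -1.69) in ADWA11, with -1.47 in females and -1.71 in males, and -0.45 (-0.52 to -0.38) in Tgfbr2_cKO. At 7 dpi it was -0.89 (-0.96 to -0.83) in ADWA11, with -1.64 and -0.34 in the 2 mice, and -0.25 (-0.39 to -0.11) in Tgfbr2_cKO, where males alone gave 0.12. Leaving out the 5 nuclei with most Col25a1 UMIs in each library moved the Tgfbr2_cKO value at 7 dpi to -1.005, and log-normalised clustering, in which an unnamed cluster of 3646 nuclei with Trpm3, Slc47a1 and Slc47a2 among its leading genes fell outside the fibroblasts, moved the Col25a1 value of Tgfbr2_cKO at 21 dpi to -3.02. Under that clustering the 7 dpi values were -1.21 in ADWA11 and -1.20 in Tgfbr2_cKO, both past 2-fold. Without the unnamed sub-clusters Col25a1 was also past 2-fold in ADWA11 at 7 dpi (-1.14) and in Tgfbr2_cKO at 21 dpi (-1.51).

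Col25a1 UMIs were concentrated in arachnoid-like nuclei, which held 26.5% of them. There the level was 696, 307 and 447.5 CPM in Ctrl, ADWA11 and Tgfbr2_cKO at 7 dpi and 1203, 532 and 341 CPM at 21 dpi. The log2 ratio at 21 dpi was -1.18 in ADWA11 and -1.82 in Tgfbr2_cKO, and females and males gave -0.92 and -1.44, and -2.09 and -1.49. In sub-cluster 0 at 21 dpi the order differed, at 307, 41.0 and 882 CPM. That last value came from 92 nuclei, and 5 of them held 66.3% of its UMIs. Myofibroblast-like nuclei held 341, 118 and 127 CPM at 7 dpi and 22.04 CPM in Ctrl at 21 dpi.

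**Figure D4:**
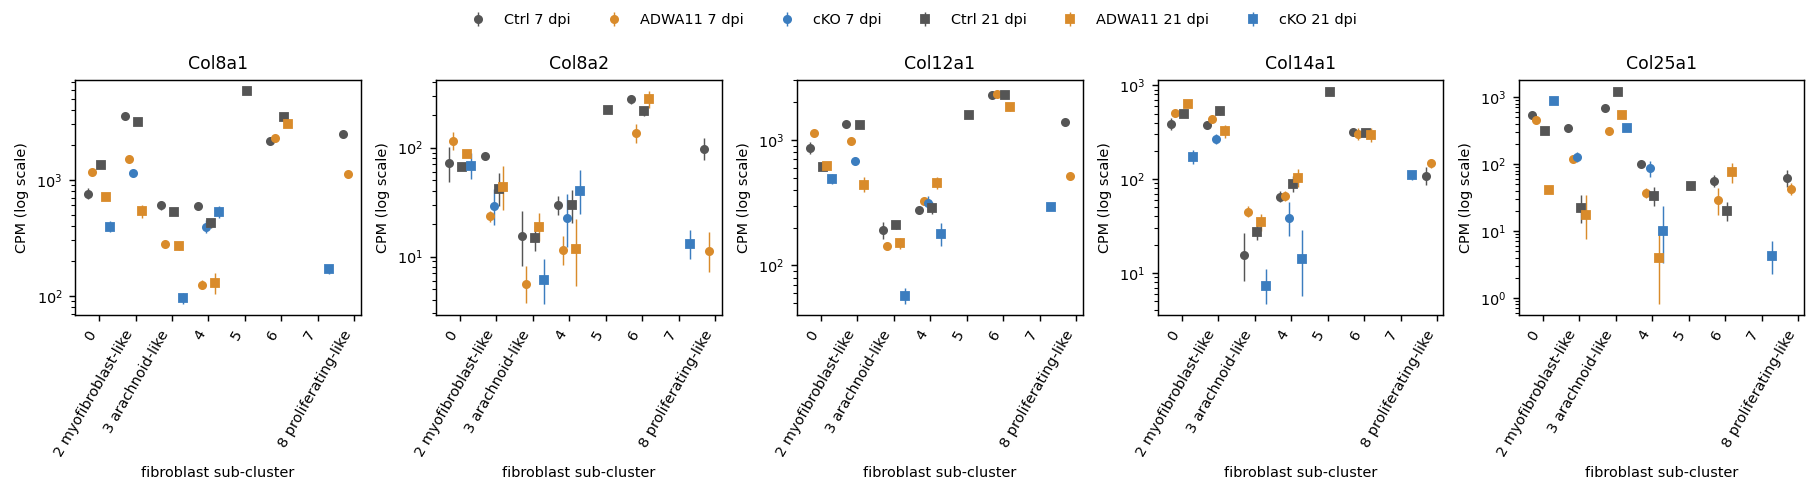
Levels of 5 collagen genes in each fibroblast sub-cluster (x axis) and library (colour), as CPM on a log axis, for units of at least 50 nuclei. Sub-cluster 6 holds the highest Col8a2 values plotted (278 CPM in Ctrl at 7 dpi and in ADWA11 at 21 dpi), and sub-cluster 3 the lowest Col14a1 value (7.33 CPM in Tgfbr2_cKO at 21 dpi) and the highest Col25a1 value (1203 CPM in Ctrl at 21 dpi).

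The low-level members in fibroblasts gave less certain values. Col9a3, a chain of collagen IX, had 9.54, 5.53 and 6.66 CPM in Ctrl, ADWA11 and Tgfbr2_cKO at 7 dpi and 4.92, 3.54 and 2.02 CPM at 21 dpi. Its log2 ratio for Tgfbr2_cKO at 21 dpi was -1.28 (-2.13 to -0.54) on 16 UMIs, and -0.41 without the unnamed sub-clusters. Myeloid nuclei had 2.00 to 4.60 CPM of Col9a3 over the libraries, and the ADWA11 and Tgfbr2_cKO fibroblast levels at 21 dpi lie within that range. In Tgfbr2_cKO at 21 dpi 1 of 860 thinned fibroblast nuclei had a Col9a3 UMI. Col9a1, its partner chain, had 71 UMIs in Ctrl at 7 dpi, of which 5 nuclei held 50.7% and sub-cluster 6 held 51; 42 were in female and 6 in male nuclei. Tgfbr2_cKO at 7 dpi had 0 Col9a1 UMIs, where the floor of 3 counts is 1.43 CPM and the exact Poisson upper bound 1.75 CPM, against 4.37 CPM in Ctrl. The Col9a1 ratio of ADWA11 to Ctrl at 7 dpi was -2.54 (-3.36 to -1.80), but -3.07 in females and -0.01 in males, so it rested on 1 mouse. In the same fibroblasts, a list of 10 cartilage genes summed to 114 and 112 CPM in Ctrl at 7 and 21 dpi and to 30.1 to 42.5 CPM in the other libraries. Col11a2 alone gave 44.4 and 66.6 CPM of these sums in Ctrl and 10.6 to 16.6 CPM in the others. Col2a1 gave 1.35 and 0.13 CPM in Ctrl, and 2 of the 10 genes had 0 UMIs there at each time. The part of this list in the Col9a1 and Col9a3 values was not tested. Col19a1 had 36 UMIs over all 6 libraries. Its log2 ratio for Tgfbr2_cKO to Ctrl was 3.82 (2.26 to 5.54) at 7 dpi on 11 against 6 UMIs. At 21 dpi it was 2.64 (0.85 to 4.60) on 8 against 5, under the limit for a count.

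Col20a1 differed in fibroblasts by day. Its level was 7.02, 4.78 and 8.09 CPM in Ctrl, ADWA11 and Tgfbr2_cKO at 7 dpi and 15.2, 17.0 and 9.22 CPM at 21 dpi. Its log2 ratio from 7 to 21 dpi was 1.12 (0.82 to 1.42) in Ctrl and 1.83 (1.54 to 2.14) in ADWA11, with 1.52 and 0.79, and 1.93 and 1.54, in females and males. Under log-normalised clustering the Ctrl ratio of Col20a1 was 0.83, short of 2-fold. Within ADWA11 it was 2.11 in sub-cluster 0, 1.96 in myofibroblast-like and 1.74 in arachnoid-like nuclei. Myeloid nuclei stood at 7.08 and 4.98 CPM of Col20a1 in Ctrl and at 5.81 and 7.2 CPM in ADWA11 at 7 and 21 dpi. In Tgfbr2_cKO the fibroblast ratio over time was 0.19 (-0.59 to 1.04), with opposite signs in females (-1.02) and males (0.86).

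The glial set was read in the 2229 oligodendrocyte-precursor-like nuclei, a class named as a whole although its sub-clusters differed in make-up, 476, 930 and 473 in Ctrl, ADWA11 and Tgfbr2_cKO at 7 dpi and 179, 34 and 137 at 21 dpi. Oligodendrocyte precursors divide and mature into myelin-forming cells around lesions, and their committed stage expresses Bcas1, Gpr17, Enpp6 and Bmp4. Precursor sub-cluster 0, with 1004 nuclei, had 7 of the 8 fibroblast markers raised, and the fibroblast markers summed to 486 to 1264 CPM over all precursor-like nuclei. Sub-cluster 3, with 229 nuclei of which 47.6% were from Tgfbr2_cKO at 7 dpi, had neuron markers raised, and sub-cluster 5, with 45 nuclei, had oligodendrocyte markers raised. Col9a1 was at 1.22 CPM in sub-cluster 3 and 77.3 CPM in sub-cluster 1. The part of these nuclei in the differences was not tested. Precursor sub-cluster 1, with 666 nuclei, had all 4 committed-precursor markers raised. In Tgfbr2_cKO at 21 dpi neutrophil markers summed to 1328 CPM in precursors, against 4.81 to 91.4 CPM in the other libraries, and their part in the values was not tested.

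Col20a1, a FACIT relative, was highest in Ctrl precursors. It stood at 328, 69.2 and 203 CPM in Ctrl, ADWA11 and Tgfbr2_cKO at 7 dpi and at 199, 131 and 60.5 CPM at 21 dpi, the value of 131 CPM resting on 34 nuclei. Its log2 ratio for ADWA11 at 21 dpi was -0.60, but -2.05 without the 5 nuclei with most Col20a1 UMIs and -1.01 in males. At 7 dpi it was 4.73-fold lower in ADWA11 than in Ctrl, a log2 ratio of -2.24 (-2.39 to -2.10), with -2.20 in females and -1.94 in males, while 34.9% and 10.3% of thinned nuclei had a UMI. For Tgfbr2_cKO the ratio was -0.69 at 7 dpi, but -1.02 in females alone. It was -1.72 at 21 dpi, with -1.20 in females and -2.26 in males. Within committed-precursor-like nuclei the levels at 7 dpi were 644.5, 98.8 and 296 CPM, log2 ratios of -2.71 for ADWA11 and -1.12 for Tgfbr2_cKO. In sub-cluster 0 the ratio for ADWA11 at 7 dpi was -2.41. Astrocyte-like nuclei stood at 72.2, 23.8 and 6.21 CPM of Col20a1 at 7 dpi and 17.1, 11.8 and 19.3 CPM at 21 dpi.

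Col9a3 differed little in precursors and Col9a1 more. Col9a3 stood at 59.2, 62.4 and 87.8 CPM in Ctrl, ADWA11 and Tgfbr2_cKO at 7 dpi and 73.6, 68.6 and 76.0 CPM at 21 dpi, with its largest log2 ratio to Ctrl 0.57, in Tgfbr2_cKO at 7 dpi. Col9a1 stood at 36.2, 44.0 and 24.2 CPM at 7 dpi and 47.5, 35.9 and 13.96 CPM at 21 dpi. In committed-precursor-like nuclei Col9a1 stood at 76.8, 80.7 and 60.2 CPM at 7 dpi. Over all precursor-like nuclei its ratio for Tgfbr2_cKO was -0.58 at 7 dpi and -1.77 at 21 dpi, where 10 nuclei carried it and females and males gave -3.37 and -0.67. In astrocytes both genes were higher in Tgfbr2_cKO than in Ctrl. Col9a1 stood at 15.1 CPM in Ctrl and 38.6 in Tgfbr2_cKO at 7 dpi (log2 ratio 1.36) and at 18.8 and 31.6 CPM at 21 dpi (0.76), and Col9a3 at 26.2 and 59.5 CPM (1.18) and at 30.1 and 46.0 CPM (0.61). Of the precursors with a Col9a1 UMI 45.2% had one of Col9a3, against 30.5% of the others, at median depths of 10160 and 6767 UMIs. Of those with a Col20a1 UMI 41.7% did, against 28.5%, at 8202 and 6753 UMIs.

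**Figure D5:**
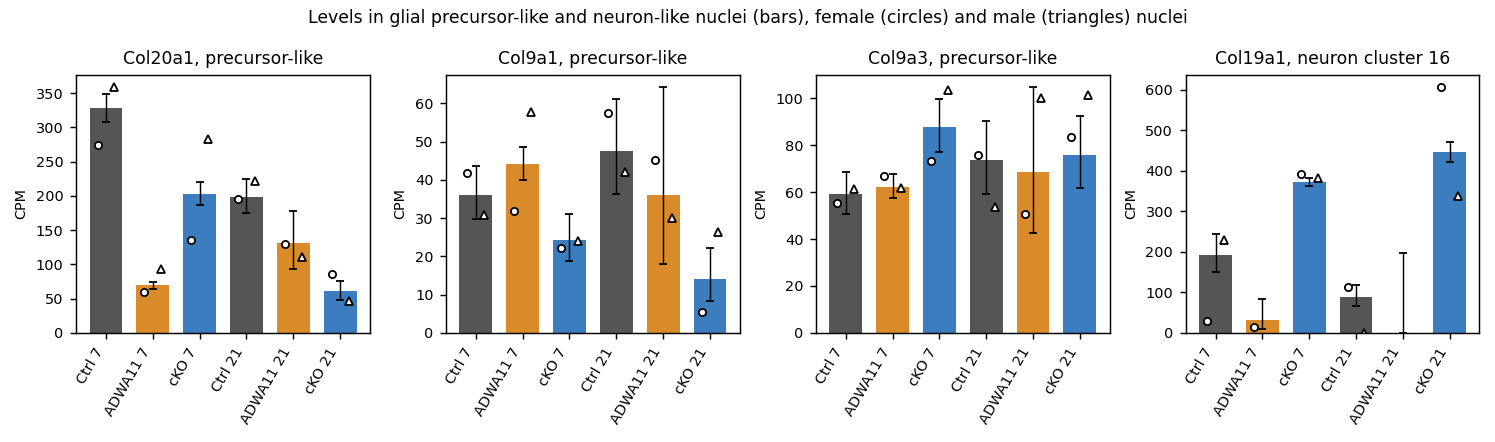
Levels of Col20a1, Col9a1 and Col9a3 in oligodendrocyte-precursor-like nuclei and of Col19a1 in neuron cluster 16 of the 6 libraries, as CPM on a linear axis from 0. Bars carry 95% Poisson intervals, circles are female and triangles male nuclei; Col20a1 stands at 328 CPM in Ctrl and 69.2 CPM in ADWA11 at 7 dpi, while Col9a3 lies between 59.2 and 87.8 CPM in all libraries.

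Col19a1, a FACIT relative made by neurons, was highest in the Tgfbr2_cKO libraries, which held the most nuclei of neuron cluster 16. Its level was 369 CPM in neuron cluster 16, and 98.6, 81.8 and 67.3 CPM in clusters 19, 12 and 18 with excitatory markers, and in nuclei thinned to 2000 UMIs 34.3% of cluster 16 had a Col19a1 UMI, against 14.9%, 12.1% and 8.55% of clusters 19, 12 and 18. Unthinned, at median depths of 10303, 17243, 18651.5 and 15737 UMIs, the shares were 47.2%, 58.6%, 45.4% and 28.0%. Over all nuclei it stood at 2.67, 0.85 and 96.1 CPM in Ctrl, ADWA11 and Tgfbr2_cKO at 7 dpi and 1.35, 1.02 and 45.2 CPM at 21 dpi. In such pooled nuclei more neurons and more RNA per neuron cannot be told apart, and neuron cluster 16 held 1023 and 234 nuclei in Tgfbr2_cKO against 70 and 166 in Ctrl and 16 and 3 in ADWA11. Within that cluster the level was 193 CPM in Ctrl and 373 in Tgfbr2_cKO at 7 dpi and 88.8 and 446 CPM at 21 dpi, log2 ratios of 0.95 and 2.33. Some alternatives moved the ratio at 7 dpi past 2-fold, and only those are listed here. It was 3.69 in females, 2.39 without the 5 nuclei with most Col19a1 UMIs, 1.52 as a mean over nuclei, 1.23 under TMM scaling and 1.02 under log-normalised clustering. The female value rested on few Ctrl UMIs, since Ctrl females held 48 over both days, most of them at 21 dpi. The make-up of the cluster differed too: fibroblast markers summed to 703 CPM in Ctrl and 31.3 in Tgfbr2_cKO at 7 dpi and to 1521 and 53.0 CPM at 21 dpi, and inhibitory neuron markers to 698 and 849.5 CPM and to 345 and 739 CPM. Their part in the Col19a1 difference was not tested. The Ctrl values came from few nuclei: 5 nuclei held 70.8% and 87.0% of the UMIs at 7 and 21 dpi, and at 21 dpi 45 of the UMIs were in female and 0 in male nuclei. Col25a1 was found in neurons too, at 162 CPM in neuron cluster 16, 168 CPM in neuron cluster 20, led by Drd2, and 63.9 CPM in neuron cluster 12.

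Genes related to the 9 members, in 5 fixed lists, were counted in the same fibroblasts. The shares of all genes past 2-fold given above for each comparison apply to these counts too. The sub-cluster make-up of these fibroblasts differed between groups, and the list genes were not followed within sub-clusters. The lists were chosen with earlier results of these data known. Of 8 fibrillar collagens, the substrate that FACITs coat, 4 were past 2-fold lower in Tgfbr2_cKO at 7 dpi and 0 higher, and at 21 dpi 6 of the 7 with enough UMIs were lower, with median log2 ratios of -1.02 and -2.64. Col11a1 had the largest ratio, at 161 against 1141 CPM at 21 dpi, then Col1a1 at 147 against 943 CPM and Col11a2 at 10.6 against 66.6 CPM. ADWA11 had 1 lower at 7 dpi, Col11a2 at 11.4 against 44.4 CPM, and 2 at 21 dpi, Col11a2 and Col11a1. From 7 to 21 dpi 2 were lower in Ctrl, 1 in ADWA11 and 5 in Tgfbr2_cKO, and 0 higher in any.

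The other network, FACIT and transmembrane collagens went both ways in Tgfbr2_cKO. Of the 6 with enough UMIs at 21 dpi, 4 were higher and 2 lower than in Ctrl, with a median log2 ratio of 1.40. The transmembrane Col23a1 stood at 384 against 143 CPM (1.42) and Col13a1 at 25.3 against 9.45 CPM (1.42), and Col9a2, the third chain of collagen IX, at 6.06 against 0.744 CPM (3.03). The FACIT Col16a1 was lower, at 33.0 against 168 CPM (-2.35). At 7 dpi Col22a1 was higher, at 14.7 against 3.39 CPM, and Col9a2 and Col16a1 lower. The Col9a2 call at 7 dpi rested on 1 UMI in Tgfbr2_cKO against 23 in Ctrl, and the one at 21 dpi on 48 against 23. ADWA11 had 1 lower at 7 dpi (Col10a1, on 10 against 18 UMIs) and 4 at 21 dpi, among them Col13a1 at 3.28 against 9.45 CPM and Col16a1 at 70.9 against 168 CPM. Over time 2 of 6 were lower in Ctrl and 4 of 6 in ADWA11, and in Tgfbr2_cKO 1 of 5 was higher and 1 lower.

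Of 7 partners at the fibril surface, Tgfbr2_cKO had 1 higher (Tnxb, tenascin-X, 58.5 against 28.3 CPM) and 2 lower (Fmod and Bgn) at 7 dpi, and 3 lower at 21 dpi (Bgn, Lum and Matn3). Matn3 had 0 UMIs in Tgfbr2_cKO at 21 dpi, set to the floor, against 28 in Ctrl. Bgn, biglycan, stood at 271, 125 and 117 CPM in Ctrl, ADWA11 and Tgfbr2_cKO at 7 dpi and 182, 120.3 and 47.2 CPM at 21 dpi. Dcn, decorin, which binds collagens XII and XIV, was not past 2-fold against Ctrl, at 533 CPM in Ctrl and 355 in Tgfbr2_cKO at 21 dpi. ADWA11 had 3 lower at 7 dpi (Matn3, Fmod and Bgn) and 1 at 21 dpi (Matn3), with 12 against 27 and 4 against 28 Matn3 UMIs. Over time Lum and Fmod were higher in Ctrl, Fmod and Comp in ADWA11, and Fmod in Tgfbr2_cKO, where Bgn was lower.

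Of 12 collagen processing genes 0 were past 2-fold in Tgfbr2_cKO at 7 dpi and 4 were lower at 21 dpi. These were the lysyl hydroxylase Plod2 (94.1 against 345 CPM), P4ha3, the collagen chaperone Serpinh1 (34.0 against 92.8 CPM) and P3h1. ADWA11 had 1 lower at 7 dpi (P4ha3) and 1 at 21 dpi (Plod2, 140.04 CPM). Over time 0 were past 2-fold in Ctrl and ADWA11, and 4 were lower in Tgfbr2_cKO. Of 8 collagen receptors, Itga11, which pairs with β1 to bind collagen I, was lower in Tgfbr2_cKO at 7 dpi (69.9 against 213 CPM) and 21 dpi (43.7 against 188 CPM). Itga10 was higher at 7 dpi, and at 21 dpi Itga1 was higher (261 against 127 CPM) and Itga2 lower. ADWA11 had 0 receptors past 2-fold at either time.

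For each member up to 3 genes most alike in level were named by Pearson's r of log2(CPM + 1), as a description with no test. Over 29 units of 1 fibroblast sub-cluster in 1 library, which share libraries and depth, Col8a1 was most like Col1a2 (0.92), Col11a1 (0.90) and Mtus1 (0.89), and Col8a2 most like Nox4 (0.89), Mn1 (0.88) and Fndc1 (0.88). Col12a1 was most like Thbs2 (0.94), Ccdc80 (0.94) and Dnm3os (0.93), and Col14a1 most like Sh3rf3 (0.91), Gm4258 (0.86) and Fam171b (0.86). Col25a1 was most like Msi2 (0.85), Fbxo10 (0.83) and Fat2 (0.82), and Col20a1 most like 0610043K17Rik (0.85), Pttg1 (0.82) and A930015D03Rik (0.80). Over 70 units of 1 class in 1 library, Col9a1 was most like Sema3d (0.83), Gfra1 (0.81) and Asrgl1 (0.80), and Col9a3 most like the oligodendrocyte lineage regulator Sox10 (0.83), Plxnb3 (0.83) and Nkx2-2 (0.82). Col19a1 was most like the neuronal genes Cntn5 (0.94) and Cacng2 (0.94).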

How the data were processed

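Nuclei of lesioned cortex were sorted by DAPI and profiled with a droplet 3′ kit in 6 libraries. The authors deposited UMI counts per gene and barcode as filtered matrices, made with Cell Ranger on mm10; the file headers name version 7.2.0 and the submitters' processing notes 7.1.0. From these counts, nuclei beyond the 2.5 percentile limits were removed, then SCTransform (sctransform 0.4.2) and Seurat 5.3.0 clustered the rest with 30 components at resolution 0.5, and at 0.2 within fibroblasts and precursors. Mitochondrial, Xist, Tsix and Y-linked genes, the 9 collagens and the pathway lists were kept out of the variable genes. Classes were named from marker lists, each "-like" in kind. Of 61917 nuclei that passed, 3330 in sub-clusters with raised myeloid markers or mostly called doublets were left out of the classes, a rule set after the clusters were seen. Values over all nuclei, and the totals behind the share of a gene's UMIs in each class, used all 61917. Of the 61917 nuclei 5211 were called doublets. Those outside the left-out sub-clusters were kept in the classes, and their removal was an alternative.

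A level is a gene's UMIs as CPM of the UMIs in its class, mitochondrial genes left out, and has an exact Poisson interval; ratios have exact conditional binomial intervals (SciPy 1.17.1), both 95% and of counting error only. A count of 0 was set to the floor of 3 counts per library. Total UMIs per library, 64798965 to 140310354, set the precision. No level is compared between genes, since 3′ counts are not per length. The ratio script was tested on simulated data. A gene was named if it was 1 of the 9, 1 of the 3 most similar genes to one (mean of at least 5 CPM, units of at least 50 nuclei), or among the 3 largest ratios past 2-fold of a list and direction; Dcn, and the fourth gene of short lists, were named after their values were seen. A gene that this rule named is not reported here. The members and lists were chosen with earlier results of these data known. Alternatives included TMM scaling (edgeR 4.0.16), other clustering and each mouse alone.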

Additional observations from a re-analysis of the deposited data

Results flagged for a closer look

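Over all nuclei of a library, 2 genes of collagen IX had ratios to Ctrl of opposite sign at the 2 times; none of these differences was tested. Col9a1 had a log2 CPM ratio of -1.10 for Tgfbr2_cKO to Ctrl at 7 dpi and of 0.46 at 21 dpi. Without the named neuron clusters the value of Col9a1 at 7 dpi was 0.0879, with a counting interval of -0.20 to 0.37 that spans 0. That setting kept unnamed cluster 19, which had neuron markers raised. It held 1137 nuclei in Tgfbr2_cKO and 12 in Ctrl at 7 dpi, at 0.43 CPM of Col9a1 over all libraries. The value is therefore not one without all neuron-like nuclei. Col9a3 had ratios of -0.44 and 0.49 for Tgfbr2_cKO at the same times. For ADWA11 the ratios of Col9a3 were 0.25 at 7 dpi and -0.82 at 21 dpi, and those of Col9a1 were 0.48 (5.79 against 4.16 CPM) and -1.46 (1.56 against 4.31 CPM). The ADWA11 ratio of Col9a1 at 7 dpi differed in sign between the mice, -0.32 in females and 1.57 in males. Precursor-like nuclei held more UMIs of both genes than any other class. The astrocyte class came next, with 32.6% for Col9a1 and 24.7% for Col9a3. Precursors of Ctrl, ADWA11 and Tgfbr2_cKO numbered 476, 930 and 473 on day 7, then 179, 34 and 137 on day 21. The matching counts of astrocytes were 173, 256 and 371, then 1340, 438 and 850. Within astrocytes both genes were higher in Tgfbr2_cKO than in Ctrl on both days. Within precursors Col9a1 was lower there and Col9a3 differed little. From values over all nuclei alone, the number of such nuclei and their RNA per nucleus cannot be told apart. The part of each class in the sign changes was not tested.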

How the results depend on the processing

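Within a day no paired analysis was possible because the groups share fewer than 2 replicate numbers, each being 1 library. A fit over the 6 libraries with day as a block was not made. Of 168 alternative counts of members past 2-fold, 145 were within 1.5 times the reported count or were 0 where the reported count was 0. Many of the reported counts were 0. The share of all genes past 2-fold was not counted under any alternative, so these counts stand without it. Members lower in Ctrl from 7 to 21 dpi numbered 5 without the unnamed sub-clusters, 0 in males, and 2 under TMM scaling, log-normalised clustering, females alone, the mean over nuclei, no low-count filter, a 1.5-fold threshold, and without sub-clusters mostly of 1 library. Members higher there numbered 0 in males and 2 without the unnamed sub-clusters or at 1.5-fold. In ADWA11 over time the lower members numbered 4 without the unnamed sub-clusters, 3 at 1.5-fold, and 1 under log-normalised clustering or in males. In Tgfbr2_cKO over time 1 was lower in males. ADWA11 at 7 dpi had 5 lower in females and 6 at 1.5-fold. Tgfbr2_cKO had 1 higher at 7 dpi in females or with no filter, and 1 higher at 21 dpi with no filter or the contaminated sub-cluster kept. Among ratios past 2-fold with at least 20 UMIs, signs turned for Col9a1 in fibroblasts of Ctrl males over time (0.48) and for Col19a1 in neuron cluster 16 of Ctrl females over time (1.91, on 48 UMIs). The sign also turned for Col9a1 over all nuclei of Tgfbr2_cKO at 7 dpi without the named neuron clusters (0.0879), a setting that kept cluster 19. Ratios short of 2-fold turned more often, among them Col14a1 in Ctrl over time (0.80 to -1.31 without the unnamed sub-clusters), Col25a1 in Ctrl (0.22 to -2.38 under log-normalised clustering) and ADWA11 over time (-0.65 to 1.51 without the unnamed sub-clusters), Col12a1 in Ctrl over time (-0.31 to 0.18 under log-normalised clustering) and Col8a2 in ADWA11 against Ctrl at 21 dpi (-0.40 to 0.23 without sub-clusters mostly of 1 library). Without the unnamed sub-clusters most nuclei left were myofibroblast-like at 7 dpi and arachnoid-like at 21 dpi. The cause of these turns was not tested. The alternatives that keep the contaminated sub-cluster or drop sub-clusters mostly of 1 library were chosen after seeing the data. With 1 library a group, differences between mice and between libraries cannot be told apart from the condition, and low counts limit Col9a1, Col9a3 and Col19a1 in fibroblasts.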
